A study of Drosophila melanogaster with 3 samples.

Results

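The genes described here are 43 protein-coding genes of Drosophila melanogaster, taken by symbol as digestive enzyme genes of the gut. They come from 13945 protein-coding genes on the chromosome arms that held peaks. The rule that picks them reads the gene symbol: Jon followed by a digit, Amy-, Mal-A, Mal-B, LManI, or a Greek letter name followed by Try. The rule gave 16 Jonah genes, 11 trypsin genes, 8 maltase A genes, 2 maltase B genes, 4 mannosidase genes and 2 amylase genes, which lie in 13 clusters or single genes. Binding of the ecdysone receptor EcR was measured by chromatin immunoprecipitation followed by sequencing (ChIP-seq) in whole pupae of the EcR-GFP line, males and females together, with a labelled age of 24 hours and no named event from which it was counted. The line stably carries EcR with enhanced GFP at its C-terminus, and the sample descriptions name an antibody against GFP for the recovery of chromatin. Another label field gives the antibody as EcR, so the labels differ on whether the tag or the receptor was targeted. The 3 biological replicates form 1 group that shares this tagged line, and no untagged line, other stage, dissected gut or hormone treatment was analysed here.

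EcR is a nuclear receptor that binds DNA together with its partner usp and, when the steroid hormone ecdysone binds it, switches the transcription of target genes. Around puparium formation the hormone sets off the death and replacement of the larval midgut, the organ in which digestive enzymes are made and secreted. Jonah genes encode serine endopeptidases related to chymotrypsin, and the trypsin genes encode proteases that cut after basic residues. Amylases cut starch, and maltases split the resulting sugars at alpha-glucosidic bonds. The LMan genes are named after lysosomal alpha-mannosidases, which trim mannose from glycans. Peak lists hold no expression values, so whether any of these genes was active in the pupae was not measured.

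The values are peak lists deposited by the authors. A pooled list of 30000 peaks was called on all replicates together. An optimal list of 9095 peaks, thresholded by the irreproducible discovery rate, which scores how well peak ranks repeat, held the 9095 strongest pooled peaks, so a peak has the same rank in both. Each replicate also had a list of 30000 peaks. The signal of a peak is the authors' own value (358 to 20268 in the optimal list, with a median of 627), and it was compared only within a list. The depth behind the peaks is unknown, since no read numbers were at hand, and no counting interval can be set. A gene was counted as bound when a summit, the position of highest signal in a peak, lay in its body or in the 2 kb before its outermost start.

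In the optimal and pooled lists the digestive enzyme genes carried few EcR-GFP peaks. These lay at 1 place, around the maltase genes Mal-A5 and Mal-A6. In the optimal list 2 of the 43 genes (4.65%) had a summit, against 4281 of all 13945 protein-coding genes (30.7%). In the pooled list, whose weakest peak had a signal of 69.3, again 2 of the 43 (4.65%) had a summit, and 41 had none, against 7026 of all genes (50.4%). The same 2 genes were counted in both lists. In the full lists of replicates 1, 2 and 3, 3 of the 43 genes (6.98%) had a summit each time, against 52.0%, 51.9% and 49.5% of all genes. Beside Mal-A5 and Mal-A6, the gene counted was Jon99Ciii in replicates 1 and 3 and iotaTry in replicate 2. When each replicate's list was limited to its own 9095 strongest peaks, a step chosen after seeing the data, 2.33 ± 0.577 of the genes had a summit (5.43% ± 1.35; SD, n = 3 replicates), against 30.4% ± 0.436 of all genes. In the replicates' lists, the difference between the shares was many times the spread between replicates. That spread was taken over the same 43 genes each time, so it measures how peak calling repeats. It does not measure how sure a share over genes in clusters is. With 1 group and no contrast no test across samples applies, and genes are not replicates, so no p-value is given. In whole pupae, a site that is bound in no cell and a site that is bound in a few gut cells only cannot be told apart.

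**Figure D1:**
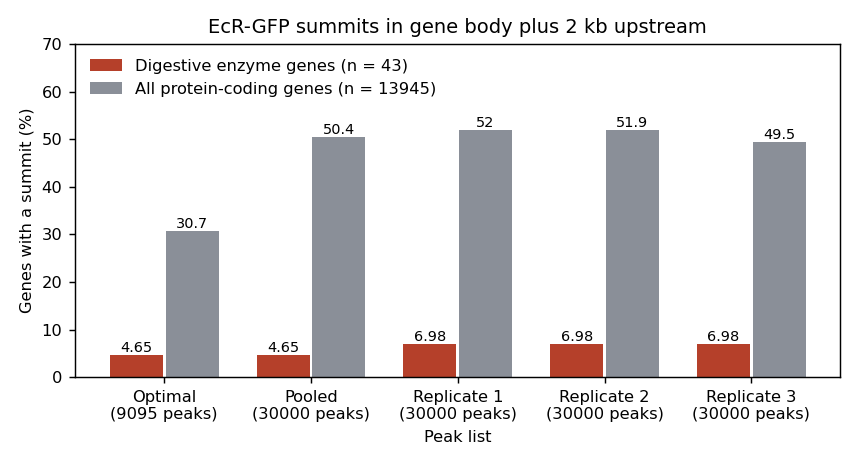
Share of genes with an EcR-GFP summit in the body or the 2 kb upstream, in percent on the vertical axis, for the 43 digestive enzyme genes (red) and all 13945 protein-coding genes (grey) in 5 peak lists. The digestive enzyme genes stand at 4.65% or 6.98% in each list, and all protein-coding genes at 30.7% in the optimal list and between 49.5% and 52.0% in the longer ones.

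The digestive enzyme genes are short, which leaves less room for a summit. Their regions were 2810 to 6815 bp long with a median of 2981 bp, against a median of 4166 bp for all protein-coding genes. Among the 8567 protein-coding genes with a region in the same range, the share with a summit was 25.1% in the optimal list and 47.5% in the pooled list, beside the same 4.65% of the digestive enzyme genes. Within bins of length, set after seeing the values, the 22 members with regions of 2800 to 3000 bp had 0 summits in either list, where 14.2% of 924 genes had an optimal and 33.3% a pooled summit. The 9 members of 3000 to 4000 bp also had 0, against 20.7% and 43.4% of 3842 genes. Of the 12 members of 4000 to 7000 bp, 2 had a summit in both lists, against 31.9% and 54.9% of 3944 genes. In all 3 bins the members' share was below that of all genes of like length.

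Sequence repeats touch some members. Several trypsin, Jonah and amylase genes are near copies of each other, and reads from identical sequence cannot be placed. The share of 32-base words that occur once in the genome had a median of 99.8% over the members' regions, and it was under 90% in 12 of them. It was lowest in gammaTry (3.96%) and deltaTry (5.25%), and near 71% in both amylase genes (71.1% in Amy-d and 71.6% in Amy-p). In these regions a missing peak cannot be read as missing binding. Jon99Ciii (76.8%) and iotaTry (51.8%) were also under 90%, and both had peaks in some replicate lists only. Whether repeats bear on those peaks was not tested. Among the 31 members with at least 90% unique words, a cut chosen after seeing the data, 2 had a pooled summit (6.45%), against 51.7% of 12910 protein-coding genes with the same share.

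Mal-A5 and Mal-A6, alpha-glucosidase genes that lie head to tail on the plus strand of 2R, were the members with peaks in every list. Mal-A5 (FBgn0050359, chr2R:8462753-8465092, dm6) held 3 optimal summits. The strongest, rank 597 of 9095 with a signal of 2258, lay in a coding exon 1114 bp after the start of Mal-A5 (peak chr2R:8463538-8464161, summit at 8463867). This site had rank 1046 with a signal of 476 in replicate 1, rank 851 with 552 in replicate 2 and rank 389 with 1227 in replicate 3. The summits of the replicates lay 0, 5 and 5 bp from the pooled one, so the site recurred to within a few bases.

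The other pair of Mal-A5 summits share 1 wider region at the start of the gene (chr2R:8462310-8463144). The stronger of them, rank 2078 with a signal of 1065, lay 125 bp before the annotated start, in intergenic sequence. It had rank 3123, 1978 and 1921 in replicates 1, 2 and 3, with signals of 242, 337 and 496. The weaker summit, rank 8361 with a signal of 386, lay in the 5′ UTR 118 bp after the start. Its replicate ranks were 7187, 10510 and 6961 and its signals 131, 99.9 and 203, so in replicate 2 it fell outside the 9095 strongest peaks. Replicate 2 also had another weak summit in the coding exon, at rank 21089. All 3 places had a summit within 100 bp in each replicate.

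Mal-A6 (FBgn0050360, chr2R:8465158-8467595) is counted through 1 summit, the one in the Mal-A5 coding exon, which lies 1291 bp before the Mal-A6 start. No summit lay in the body of Mal-A6 in any of the 5 lists. Counting gene bodies only therefore left 1 member with a summit, Mal-A5, in both the optimal and the pooled list. Within 100 bp of these summits the receptor half-site AGGTCA was present at 2 of the 3, on the minus strand, 45 bp from the coding exon summit and 96 bp from the 5′ UTR summit. Neither the half-site GGGTCA nor the inverted repeat of EcR and usp was found there. The repeat was searched in a degenerate form, in which several positions allow either of a pair of bases, with up to 1 mismatch, so a match need not hold AGGTCA or GGGTCA. Over all optimal peaks the same windows held AGGTCA in 7.77%, GGGTCA in 7.08% and the inverted repeat in 4.84%.

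**Figure D2:**
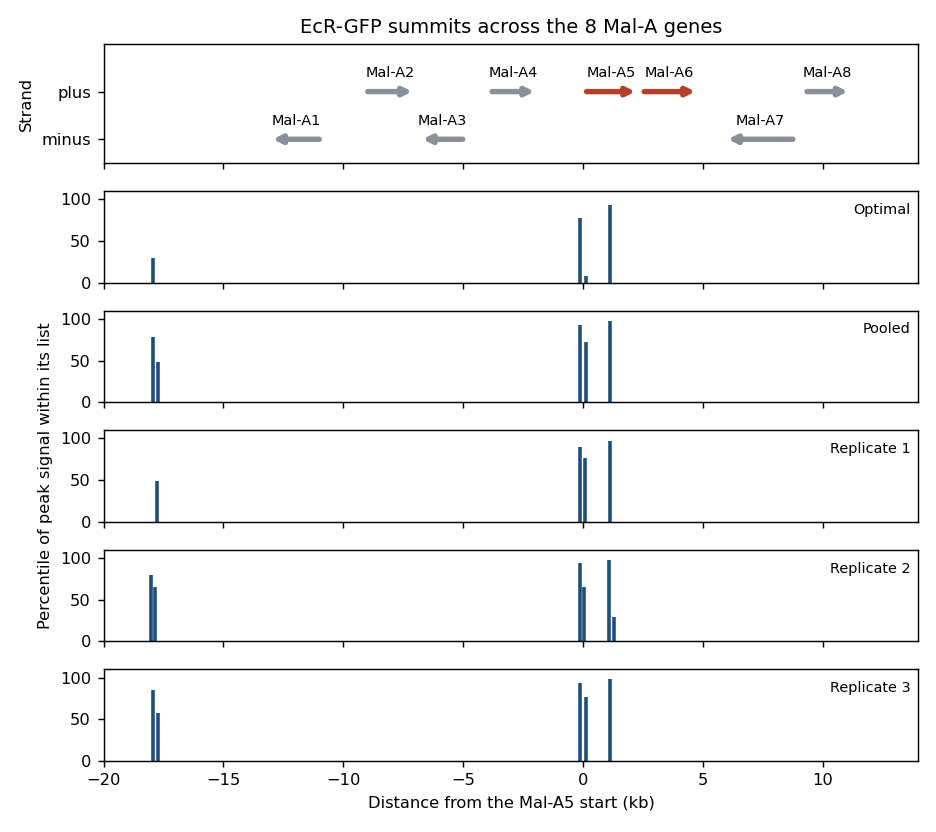
The 8 maltase A genes by strand (top; Mal-A5 and Mal-A6 in red, the other 6 in grey) and EcR-GFP summits in the optimal, pooled and replicate lists, by distance from the Mal-A5 start in kb; the height of a line is the percentile of the peak's signal within its own list. In each list the summits inside the cluster stand at Mal-A5, and the summits farther left lie beyond Mal-A1.

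The other 6 maltase A genes had 0 summits in every list. Mal-A4 lay closest, with its start 3813 bp from an optimal summit, followed by Mal-A3 at 4736 bp, Mal-A1 at 7072 bp, Mal-A7 at 7796 bp, Mal-A8 at 8087 bp and Mal-A2 at 8795 bp. The median over all 8 was 5.9 kb, the shortest of the 6 families and close to the 6.1 kb of all protein-coding genes. Of the 8, 2 (25.0%) had an optimal summit, against 30.7% of all genes. The same 25.0% had a pooled summit, against 50.4%. In the optimal list this family was thus near the share and distance of all genes. Left of the cluster, 4.83 kb from the end of Mal-A1, an optimal peak of rank 6383 lay in a coding exon of Cyp4e2, a cytochrome P450 gene. A peak was counted as found in a replicate when a summit among that replicate's 9095 strongest lay within 100 bp, and by this measure the Cyp4e2 peak was found in 1 replicate. To the right the next optimal summit was 120 kb away, near CG43183 (rank 3564).

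The maltase B genes lie elsewhere, on 2L, both inside the long gene Pde1c, a phosphodiesterase gene on the opposite strand. Neither Mal-B1 nor Mal-B2 had a summit in any list, while their host had 2 optimal summits. The nearest of these lay 18.2 kb right of Mal-B2 in an intron of Pde1c (rank 2902, found in all 3 replicates), 3420 bp from a Pde1c start. The start of Mal-B1 was 23813 bp and that of Mal-B2 21081 bp from that summit.

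The amylase pair Amy-p and Amy-d, on 2R, had no summit in any list. Their nearest optimal peak lay 10004 bp beyond Amy-d, 78 bp from the start of Gbp1, a growth-blocking peptide gene (rank 7447, in all 3 replicates). On the other side the nearest lay 15.8 kb away in the 5′ UTR of CG46491 (rank 1971). The serpin gene Spn53F lies between the amylases and had no summit either. The gap between these flanking summits was 33.5 kb, and 53.1% of protein-coding genes lay in a gap at least as long.

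The 11 trypsin genes form a single cluster of 20.7 kb on 2R, from lambdaTry to iotaTry, and none of them had an optimal or pooled summit. The nearest optimal peak lay 7.34 kb to the right of iotaTry, 1834 bp from the start of CG13204 (rank 4541, in all 3 replicates). To the left it lay 29.4 kb from lambdaTry, in the 5′ UTR of Fpps, the farnesyl pyrophosphate synthase gene (rank 3456). A weak peak at the 3′ UTR of iotaTry was listed in replicate 2 only, at rank 28250 of 30000 with a signal of 27.1. It made iotaTry the third gene counted in that replicate, beside Mal-A5 and Mal-A6. The 3 other protein-coding genes inside the cluster, among them the trypsin relatives CG30025 and CG30031, had no optimal or pooled summit. Within 5 kb of the gene bodies, pooled summits were reached from deltaTry and iotaTry, and no optimal summit was reached from any of the 11.

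The 4 mannosidase genes, all on 2L, had no summit in any list and the longest median distance to an optimal summit, 32.6 kb. LManIII and LManIV had their nearest optimal peak 25.0 kb to the left, in an intron of raw 426 bp from its start (rank 1158), in all 3 replicates. LManI and LManII had theirs 28.6 kb to the left in a coding exon of Wdfy2 (rank 5954), also in all 3. The gaps between flanking optimal summits were 85.3 kb around LManIII and LManIV and 82.6 kb around LManI and LManII. Gaps at least as long held 27.5% and 28.4% of protein-coding genes. The 2 further genes of the family that the symbol rule leaves out, LManV and LManVI, had no summit, nor had Try29F, a trypsin gene outside the cluster. These relatives were chosen after their values were seen.

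The 16 Jonah genes lie in 7 places on 2L, 2R, 3L and 3R, and none had an optimal or pooled summit. Their starts lay between 8399 bp (Jon74E) and 90213 bp (Jon65Aiii) from the nearest optimal summit, with a median of 23.6 kb. The 4 Jon65A genes stood in the longest gap, 188 kb between optimal summits, and 9.43% of protein-coding genes lay in a gap at least as long. The nearest optimal peaks of that cluster lay 86.4 kb to the left, 2134 bp from the start of Egfrap (rank 7042), and 86.5 kb to the right, 996 bp from the start of Cpr65Av, a cuticle protein gene (rank 2850). The gap was 104779 bp around the Jon99C genes, with the nearest peak 21.5 kb away in an intron of CG31038 (rank 5292). It was 91.1 kb around Jon99Fi and Jon99Fii, 68.4 kb around the Jon25B genes and 60.8 kb around Jon66Ci and Jon66Cii. The single genes had the shorter gaps, 48.5 kb at Jon44E and 24.5 kb at Jon74E. Gaps at least as long held 22.2% of protein-coding genes for Jon99C, 25.2% for Jon99F, 31.7% for Jon25B and 35.9% for Jon66C. For Jon44E and Jon74E the shares were 42.8% and 61.9%.

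The nearest optimal peaks of the remaining Jonah genes lay at or in other named genes. For the Jon25B genes it lay 18.9 kb to the right in the 5′ UTR of mRpL28, a mitochondrial ribosomal protein gene, 24 bp from its start (rank 2757). For Jon44E it lay 16.2 kb to the left in an intron of Acsl, a fatty acid coenzyme A ligase gene (rank 5078). For the Jon66C pair it lay 27.9 kb to the right in the 5′ UTR of CG32354 (rank 6240), found in 1 replicate. For Jon74E it lay 8.4 kb to the right in the 5′ UTR of the cyclin gene CycT (rank 7692). The Jon66C pair also neighbours ImpE1, named as an ecdysone-inducible gene, whose region held 7 pooled and 0 optimal summits, and the nearest pooled summit lay 7492 bp from Jon66Ci.

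Jon99Ciii was the Jonah gene with a peak in some replicates, and the sequence between those summits is shown because the replicates placed them differently. Replicate 3 had a summit 702 bp before its start, at rank 4420 with a signal of 287, and replicate 1 had one 614 bp before the start, at rank 14938 with a signal of 65.9. These summits lay 88 bp apart. Replicate 2, the pooled list and the optimal list had none there. The peak of replicate 3 was among its 9095 strongest, which is why that replicate gives 3 members with a strong peak and the others give 2. The interval also falls in the upstream region of trp, which encodes a calcium channel of the photoreceptors. No half-site, inverted repeat or GATAAG was found in the sequence below (dm6, chr3R:29921454-29921662, plus strand, with the 11 bases around each summit in capitals, replicate 3 first).
Jon99Ciii upstream interval: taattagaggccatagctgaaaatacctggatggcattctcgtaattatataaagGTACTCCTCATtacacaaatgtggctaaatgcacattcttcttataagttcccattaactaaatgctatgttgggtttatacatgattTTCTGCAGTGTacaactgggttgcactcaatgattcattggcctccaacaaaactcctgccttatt

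Jon99Fi and Jon99Fii had a flanking peak with a match to the degenerate inverted repeat, and its sequence is shown as an example of a flanking peak. This peak lay 14.6 kb left of Jon99Fii in an intron of PH4alphaEFB, a prolyl 4-hydroxylase gene, at rank 3709 with a signal of 723, and it was found in all 3 replicates. The nearest gene start was that of spdo, 4268 bp away. Of the 26 optimal peaks that flank the 13 clusters it was the only one with the inverted repeat within 100 bp, read with up to 1 mismatch on either strand, and the 2 matches counted there are 1 place read on both strands. Over all optimal peaks 4.84% hold the repeat, so 1 of 26 is near the background. The place holds neither AGGTCA nor GGGTCA. The match is in capitals below (dm6, chr3R:30472356-30472476, plus strand, centred on the summit).
PH4alphaEFB intron peak: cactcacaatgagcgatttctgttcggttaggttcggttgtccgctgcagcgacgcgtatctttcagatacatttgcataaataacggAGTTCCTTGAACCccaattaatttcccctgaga

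Across all members, the distance from the gene start to the nearest optimal summit had a median of 20.9 kb, against 6.1 kb for all protein-coding genes. To the nearest pooled summit it was 12.8 kb for the members, against 1.98 kb for all genes. In the 9095 strongest peaks of replicates 1, 2 and 3 the members' median was 18.9, 20.8 and 17.2 kb, and that of all genes 6.33, 6.13 and 6.25 kb. Within 1 kb of the start 1 member (2.33%) had an optimal summit, against 22.1% of all genes. Within 5 kb it was 4 members (9.3%), against 45.4%, and within 10 kb it was 11 members (25.6%), against 61.7%. The shares still differed within 20 kb, at 48.8% of the members and 78.0% of all genes, and were close within 50 kb, at 90.7% and 91.9%. Members of 1 cluster share their nearest summits, and their distances are not independent values.

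**Figure D3:**
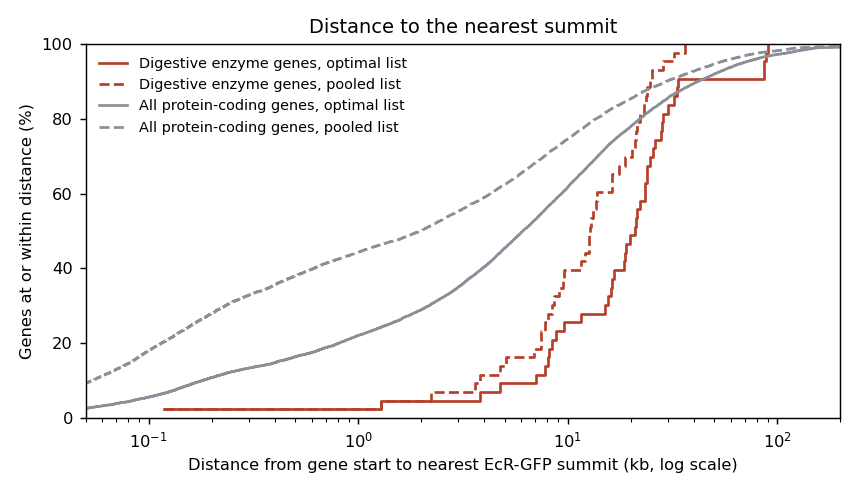
Share of genes (vertical axis, percent) with an EcR-GFP summit at or within a distance of the gene start (horizontal axis, kb, log scale), for the 43 digestive enzyme genes (red) and all 13945 protein-coding genes (grey) in the optimal list (solid) and the pooled list (dashed). At 1 kb the red lines stand at 2.33% in both lists and the grey lines at 22.1% and 44.3%, and beyond 50 kb the lines run close together.

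The gap between the optimal summits on either side of a gene start was 60.8 kb at the median over the members, against 36.9 kb over the 13836 genes with a summit on both sides. With pooled summits it was 51.5 kb, against 17.8 kb. Of the 13 clusters or single genes, 1 held a summit, and of the other 12 the nearest optimal peak was found in all 3 replicates for 8, in 2 replicates for 3 and in 1 replicate for 1. Of the 26 first protein-coding genes that flank the 13 clusters without overlap, 4 had an optimal summit (15.4%) and 8 a pooled one (30.8%), against 30.7% and 50.4% of all protein-coding genes, with no match on gene length. The 4 were Cyp4e2, Acsl, the ubiquitin ligase gene Nedd4 beside Jon74E and PH4alphaEFB. The 4 other protein-coding genes inside the cluster spans had none.

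**Figure D4:**
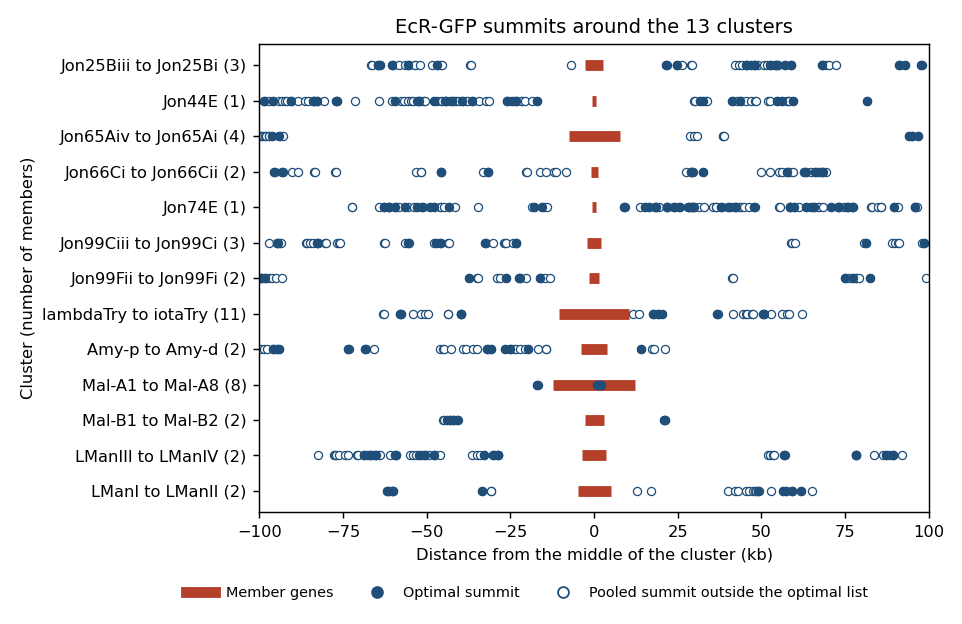
EcR-GFP summits around the 13 clusters or single genes, by distance from the middle of the cluster (horizontal axis, kb, in genome order); red bars mark the span of the digestive enzyme genes, filled circles optimal summits and open circles pooled summits outside the optimal list. The span from Mal-A1 to Mal-A8 holds summits, and the other 12 spans hold none.

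The promoters of the members, read from 250 bases before to 50 bases after the outermost start, share letters that the choice by symbol did not use. GATAAG, the core motif of GATA factors such as GATAe, which acts in the midgut, was present on either strand in 32 of 43 promoters (74.4%), against 18.9% of all 13945 promoters of the same length. TATAAA, the TATA box, was in 33 (76.7%), against 45.8%. The half-site AGGTCA was in 0 of 43, against 5.88%, and GGGTCA was in 5 (11.6%), against 5.25%. The inverted repeat with up to 1 mismatch was in 0 of 43, against 0.588%. GATAAG and TATAAA cannot share a base, the half-sites can share end letters with either, and the degenerate inverted repeat can lie on the same bases as a half-site or hold neither.

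By family GATAAG was present in 12 of 16 Jonah promoters, 10 of 11 trypsin promoters, 6 of 8 maltase A promoters, 2 of 4 mannosidase promoters and both amylase promoters. Neither maltase B promoter held it, nor those of LManI and LManII, which lie head to head and are read away from each other. Mal-A5, the member with peaks at its start, had neither GATAAG nor TATAAA in its promoter, and Mal-A6 had TATAAA only. Promoters of near copies repeat the same letters, so the counts are not of independent sequences. At the optimal peaks of the whole genome, GATAAG stood within 100 bp of 12.6% of the summits and TATAAA of 16.9%.

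**Figure D5:**
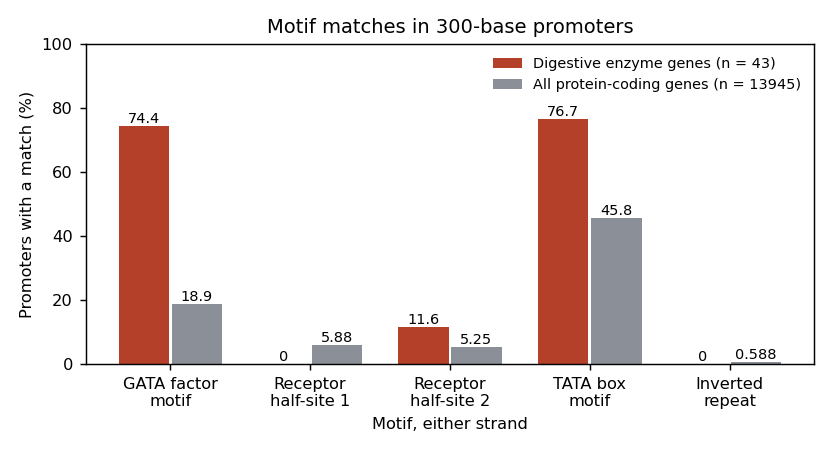
Share of promoters of 300 bases (vertical axis, percent) with a match on either strand to 5 motifs, for the 43 digestive enzyme genes (red) and all 13945 protein-coding genes (grey); receptor half-site 1 is AGGTCA, half-site 2 is GGGTCA, the GATA factor motif is GATAAG and the TATA box motif is TATAAA. The red bar stands at 74.4% for the GATA factor motif, where the grey bar stands at 18.9%.

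The letters can be seen in the 100 bases before the start of 6 promoters from the Jonah, mannosidase and maltase B families. They were chosen to show different families, a near copy and a promoter without GATAAG, and do not stand for all members. In the same 100 bases Jon25Bii, Jon25Biii, Jon65Aiv, Jon65Aii, Jon65Ai, Jon66Ci and Jon66Cii held TATAAA without GATAAG. Jon25Bi and Jon99Ci held GATAAG without TATAAA, and Jon74E, LManI and LManII held neither. The 6 promoters are read along the strand of the gene, with GATAAG, on either strand, and TATAAA in capitals. The positions are in dm6: chr3L:6050657-6050756 on the plus strand for Jon65Aiii, chr3R:29922116-29922215 on the plus strand for Jon99Ciii, chr3R:29924616-29924715 on the minus strand for Jon99Cii, chr3R:30488863-30488962 on the plus strand for Jon99Fi, chr2L:8772345-8772444 on the minus strand for LManIV and chr2L:11847126-11847225 on the plus strand for Mal-B1. In the 5 of these 6 promoters with both motifs GATAAG lies before TATAAA. Jon99Ciii and Jon99Cii share runs of letters around both motifs.
Jon65Aiii: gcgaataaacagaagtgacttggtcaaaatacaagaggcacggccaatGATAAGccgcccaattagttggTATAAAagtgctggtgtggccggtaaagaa
Jon99Ciii: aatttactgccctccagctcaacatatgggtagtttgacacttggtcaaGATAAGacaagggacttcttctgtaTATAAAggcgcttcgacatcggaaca
Jon99Cii: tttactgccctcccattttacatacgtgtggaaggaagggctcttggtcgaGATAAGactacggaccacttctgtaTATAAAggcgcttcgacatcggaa
Jon99Fi: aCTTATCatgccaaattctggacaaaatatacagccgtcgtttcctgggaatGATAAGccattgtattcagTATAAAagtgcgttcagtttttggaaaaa
LManIV: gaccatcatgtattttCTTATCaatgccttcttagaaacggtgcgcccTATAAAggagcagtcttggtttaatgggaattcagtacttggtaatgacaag
Mal-B1: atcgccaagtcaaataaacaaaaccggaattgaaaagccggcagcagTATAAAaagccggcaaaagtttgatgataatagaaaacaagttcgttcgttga

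Other gene lists of the gut give the setting of these counts. Of 16 other digestive hydrolase and secreted gut genes, such as Amyrel, the lipase mag and the lysozymes, 3 (18.8%) had an optimal summit and 7 (43.8%) a pooled one, beside 30.7% and 50.4% of all protein-coding genes. The 3 were LysD and LysE, which share 1 peak in an intron of mwh (rank 5336), and Npc2a, a sterol-binding protein gene whose peak lies in a coding exon of Got2 (rank 1297). Of the genes with pooled summits only, LysB and LysS had their strongest within mwh, Ser8 in an intron of ATP8A and LysX in its own coding exon. Amyrel, mag, tobi, yip7, Lip3, Gba1a, Ser6, Ser12 and LysP had no summit in either list, like most of the digestive enzyme genes. Of 15 midgut regulators and gut cell markers, 8 (53.3%) had an optimal summit and 11 (73.3%) a pooled one, beside the same 30.7% and 50.4%. The strongest were at the GATA factor gene srp (rank 789), at pros, a marker of enteroendocrine cells (rank 1189), and at the Notch ligand gene Delta (rank 1609). GATAe had 6 pooled summits and 0 optimal ones, and vvl and Dr also had pooled summits only. The regulators cad, lab, Ptx1 and Sox21a had no summit in either list. Of 6 midgut transporter and acid region genes, 2 (33.3%) had an optimal summit, the carbonic anhydrase gene CAH1 (rank 877) and the vitamin transporter gene Smvt (rank 4986), and 4 (66.7%) a pooled one. These lists differ from the digestive enzyme genes in gene length, and the part of length in their shares was not tested.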

How the data were processed

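ChIP-seq peak lists of 3 biological replicates of 1 group were used. Per the labels, the library was made from EcR-GFP pupae, and per the deposited notes a replicate list came from 1 replicate's alignment with a control, the pooled list from all replicates, and the optimal list from these. Which aligner and peak caller made them is not given in the sources used here. Ranks come from the deposited signal of each peak. The deposited −log10 q-value of every optimal peak was 4.55, the highest in the list, and was not used for ranks. The summit is the deposited start plus the summit offset, written from 1.

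Positions are in dm6, and genes are those of Ensembl release 115 on the same assembly, genome release 6. Of 13986 protein-coding genes, 41 on sequences without peaks were left out. Members whose bodies lie within 20 kb of the next form 1 cluster. Summits within 100 bp count as shared. Named are all members with an optimal summit, those seen in replicates only, the nearest optimal peak of each cluster, and up to 3 bound genes per comparison list. Slc5A5 found no gene of that symbol, and LysC is annotated as a pseudogene. The members and lists were chosen with earlier results of these data known. Counting was checked on simulated peaks. Python 3.11.15, numpy 2.4.6, pandas 2.3.3 and matplotlib 3.10.9 were used. Alternatives were other gene regions, interval overlap, stricter lists, each replicate left out of the matching of summits, and each replicate alone.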

Additional observations from a re-analysis of the deposited data

How the results depend on the processing

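The count of 2 digestive enzyme genes with a summit, in the optimal and in the pooled list, stayed at 2 under several settings (lowest 2, highest 2). These were interval overlap of at least 1 bp, 1 summit per region, stricter lists and each replicate left out in turn. To leave a replicate out, the list made from all 3 replicates was filtered to summits found in the others, without new peak calling. Such filters, stricter lists and 1 summit per region can keep or lower the count but cannot raise it, so its stability there is limited support. The count was 1 in both lists with gene bodies only and within 1 kb of an annotated start. With 5 kb on both sides it was 6 (optimal), all of them maltase A genes, and 9 (pooled). The share of all protein-coding genes with an optimal summit was 19.1% with bodies only, 24.2% within 1 kb of a start, 51.9% with 5 kb on both sides, 32.1% with interval overlap, 18.7% in the 4547 strongest optimal peaks, 19.1% with summits within 50 bp in all 3 replicates, 25.2% to 25.8% with a replicate left out, and 30.2% and 30.1% in the own lists of replicates 1 and 3. The pooled share was 33.4%, 45.6% and 66.7% with these gene regions, 44.4% in the 18190 strongest peaks, 44.9% to 45.8% with a replicate left out, 52.0% and 51.9% in the lists of replicates 1 and 2, and 47.5% within the members' range of region lengths. The members' median distance to an optimal summit was 20864 bp with any replicate left out, a filter that can keep or lengthen it but not shorten it. In the own lists of replicates 1 and 3 it was 18860 bp and 17235 bp. Settings on own lists, unique words and region length were chosen after seeing the data. With other gene regions and shorter lists the share of all genes moves by construction; in the own lists the cause was not tested.

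No paired analysis was possible because the replicates form 1 group. Read depth is unknown, the lists have fixed lengths, and a weak site outside the 30000 peaks would not be seen. Whether reads in repeated sequence were kept was not tested. Tissue cannot be resolved in whole pupae.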
